A study of Mus musculus with 6 samples.

Results

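The genes of the cytosolic ribosomal proteins were examined in mouse tibialis anterior, a fast shin muscle, after castration. A gene was taken as a member when its symbol in the array annotation had the form of a large-subunit (Rpl) or small-subunit (Rps) protein name, with pseudogene (-ps) symbols and the S6 kinase genes left out. The rule found 67 of the 22180 genes measured, read by 108 probe sets that name 1 gene alone. Where a gene had several, the probe set brightest on average over the 6 arrays was read. The rule used no difference between groups.

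Both groups were male C57Bl/6 mice that had surgery at 11 weeks of age, recovered for 7 weeks and were 18 weeks old at collection, after an overnight fast. The 3 castrated mice carry the diet label refed, and the 3 sham-operated mice carry the diet label fasted. The series describes mice that either stayed fasted or ate for 30 minutes and then fasted for 4 hours, whereas the protocol given with each sample has every mouse eating. The feeding label follows the surgery throughout, so the effects of surgery and feeding cannot be told apart, and castrated and sham stand below for both together. Each sample is described as muscle of a mouse, and nothing numbers the animals, so a p-value here reflects only how these samples vary. Values are deposited log2 expression values per probe set of a whole-transcript array, labelled from 300 ng of total RNA, and their number limits the precision. In whole muscle, fewer cells of a type and less RNA per cell cannot be told apart.

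Array medians over all genes lay between 5.41 and 5.47 in castrated and between 5.40 and 5.43 in sham samples. All 12 muscle fibre markers examined, among them the fast-fibre genes Myh4, Actn3 and Pvalb, were in the top percent of genes by value, at or above the 99.6th percentile. Their summed values, on the log2 scale, were 16.63 to 16.70 in castrated and 16.62 to 16.74 in sham samples.

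A cytosolic ribosome is built from a large subunit, which forms peptide bonds, and a small subunit, which reads the messenger RNA. Their proteins are made in matched amounts, and many of their messages begin with a pyrimidine-rich tract, the 5′ terminal oligopyrimidine (5′TOP) motif. Through it the kinase complex mTORC1, which responds to feeding and growth signals, controls their translation more than their abundance. Protein synthesis in muscle draws on this pool of ribosomes and responds to androgens and to feeding.

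The 67 genes fell into 32 large-subunit core genes, 23 small-subunit core genes, the 3 genes of the P stalk, which recruits elongation factors, and 9 paralogs with an l after the number. Of the paralogs, RefSeq lists Rps4l as a transcribed pseudogene and Rpl6l as a pseudogene. Ribosomal protein genes have many processed pseudogenes, and probes that match such copies would add to a reading, which was not tested. By probe set value, 36 of the 67 were in the top quartile of all genes, at 6.96 or above on the log2 scale, and 14 were below the array median. Values of different probe sets have different baselines, so this split describes signal and gives no ranking of transcripts.

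The promoters below are shown because the 5′TOP motif sits at the start of the message. RefSeq windows on assembly GRCm38.p6 were found for 52 of the 67 genes, with 61 starts in all. A run of C followed by C or T letters, at least 8 long and beginning within 20 bases of an annotated start, was in 29 of the 61 windows (47.5%), against 14.5% of all 32851 windows in the table. A C exactly at the start followed by at least 4 C or T letters was in 11 of the 61 (18.0%), against 2.51% of all windows. The ETS-type letters CCGGAA, searched on both strands over the 300 bases, were in 30 windows (49.2%, against 14.9%), and TATAAA, searched likewise, in 6 (9.84%, against 13.6%). The YY1-type letters AAGATGGC, also on both strands, were in 3 (4.92%, against 2.75%). A match is a description of the letters, and annotated starts can differ from those used in muscle. The lines give 60 bases before and 20 bases from the start of genes in the top quartile of value, with the run in capitals where there is one.
Rps6 at chr4:86857348-86857427, minus strand: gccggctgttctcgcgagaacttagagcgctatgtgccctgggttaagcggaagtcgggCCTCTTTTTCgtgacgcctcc
Rps9 at chr7:3703981-3704060, plus strand: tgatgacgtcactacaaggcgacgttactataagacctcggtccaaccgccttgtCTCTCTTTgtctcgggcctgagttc
Rpl15 at chr14:18270967-18271046, minus strand: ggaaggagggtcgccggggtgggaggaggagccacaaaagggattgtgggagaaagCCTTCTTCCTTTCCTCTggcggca
Rpl35 at chr2:39005112-39005191, minus strand: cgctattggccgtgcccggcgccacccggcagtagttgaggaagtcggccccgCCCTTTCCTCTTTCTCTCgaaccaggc
Rpl28 at chr7:4792905-4792984, plus strand: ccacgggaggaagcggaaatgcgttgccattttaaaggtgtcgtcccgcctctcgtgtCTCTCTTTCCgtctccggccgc
Rpl4 at chr9:64173327-64173406, plus strand: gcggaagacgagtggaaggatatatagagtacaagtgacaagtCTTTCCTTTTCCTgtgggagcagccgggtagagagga
Rps28 at chr17:33824543-33824622, minus strand: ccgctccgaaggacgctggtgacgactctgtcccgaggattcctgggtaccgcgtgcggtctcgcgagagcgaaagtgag
Rps4x at chrX:102189372-102189451, minus strand: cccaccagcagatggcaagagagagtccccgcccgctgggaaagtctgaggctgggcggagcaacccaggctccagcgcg
Rplp0 at chr5:115559407-115559486, plus strand: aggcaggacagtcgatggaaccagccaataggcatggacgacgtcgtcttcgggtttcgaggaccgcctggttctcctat
Rpl3l at chr17:24727766-24727845, plus strand: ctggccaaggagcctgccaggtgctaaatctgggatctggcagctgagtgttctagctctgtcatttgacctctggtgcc
The lines for Rps6, Rps9, Rpl15, Rpl35, Rpl28 and Rpl4 carry a run, and those for Rps28, Rps4x, Rplp0 and the muscle paralog gene Rpl3l carry none in this window.

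No ribosomal protein gene passed the test between castrated and sham muscle. With limma over all genes, 0 of the 67 had a Benjamini-Hochberg adjusted p under 0.05, where 3 of all 22180 genes did (0.0135%). By direction, 0 were called higher (0.00451% of all genes) and 0 lower (0.00902%). The smallest adjusted p among the 67 was 0.691 (limma), for Rpl17. At an unadjusted p under 0.05 (limma), 1 of the 67 remained, against 7.13% of all genes. It was Rpl17, which was higher (3.62% of all genes), and 0 were lower at that level (3.51%). Values were nevertheless lower in castrated muscle for 48 of the 67 (71.6%), against 51.5% of all genes. The median difference, castrated minus sham, was -0.074 on the log2 scale, or -5.03%, against -0.0056 over all genes. In the top quartile of value, 30 of 36 were lower (83.3%) with a median difference of -0.075, against 64.2% and -0.041 for all genes of that quartile. Below it, 18 of 31 were lower, with a median of -0.074.

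A single sham array stood above the rest for these genes. Sham 1 gave the highest of the 6 values for 44 of the 67 genes (65.7%), against 16.6% of all genes. In the top quartile it was the highest for 31 of 36 (86.1%), against 22.0% of all genes of that quartile, and for 12 of the 12 small-subunit core genes there. Each gene's mean over the arrays was subtracted from its values to put genes on 1 scale. The medians over those 36 genes were then -0.016, -0.019 and -0.077 in castrated 1, 2 and 3, and 0.20, -0.037 and -0.022 in sham 1, 2 and 3. The same medians over all genes of the top quartile were -0.059, 0.015 and -0.015 in the castrated arrays and 0.0076, 0.017 and 0.031 in the sham arrays. By these medians sham 1 stood above the other 5 arrays, and sham 2 and sham 3 lay among the castrated arrays. Castrated 3 was the lowest array for 17 of the 36, and sham 1 was the highest for all 17 of these.

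**Figure D1:**
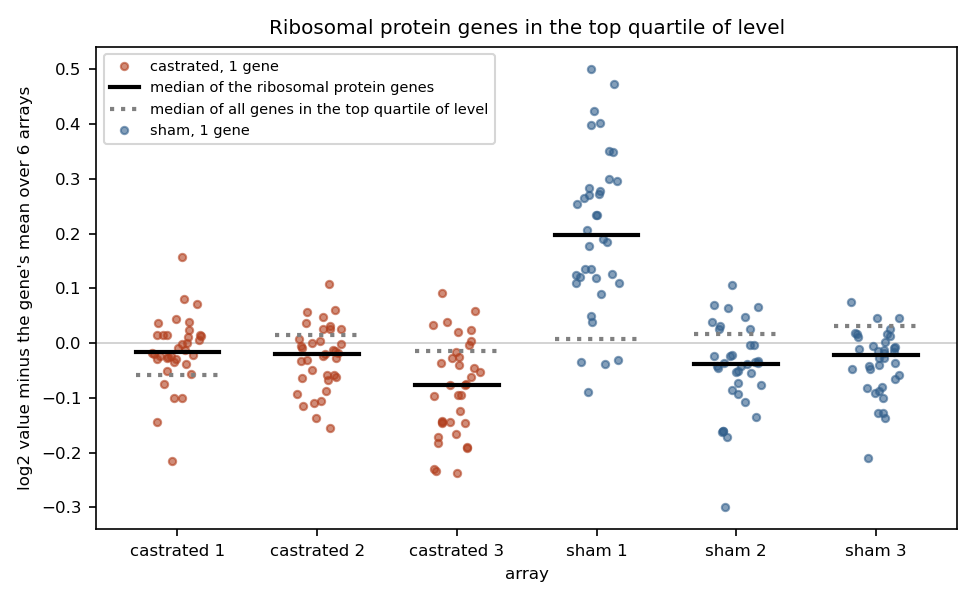
Log2 value minus the gene's mean over 6 arrays (vertical axis) for the 36 ribosomal protein genes in the top quartile of value, by array (horizontal axis). Points are genes, solid bars their median and dotted bars the median of all genes in that quartile: the solid bar of sham 1 is at 0.20, and those of the other 5 arrays lie between -0.077 and -0.016.

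Without sham 1 the count over the 67 genes came close to that over all genes, and the count in the top quartile was below that of the quartile. Of the 67 genes, 36 were lower in castrated muscle and the median difference was -0.0094, against 52.1% lower and -0.0084 over all genes. In the top quartile, 18 of 36 were lower with a median of 0.00056, against 66.0% lower and a median of -0.047 for all genes of that quartile. Below the top quartile 18 of 31 were lower, as with all samples, with a median of -0.038. Of the 67 genes, 16 went from lower to above 0 and 4 the other way. For 20 genes the difference moved up by more than 0.1, which includes moves past 0 or further above it. Leaving out any other sample kept 48 to 51 of the 67 lower, with medians between -0.10 and -0.064. A set of 28 genes was lower, and 8 were higher, whichever sample was left out.

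**Figure D2:**
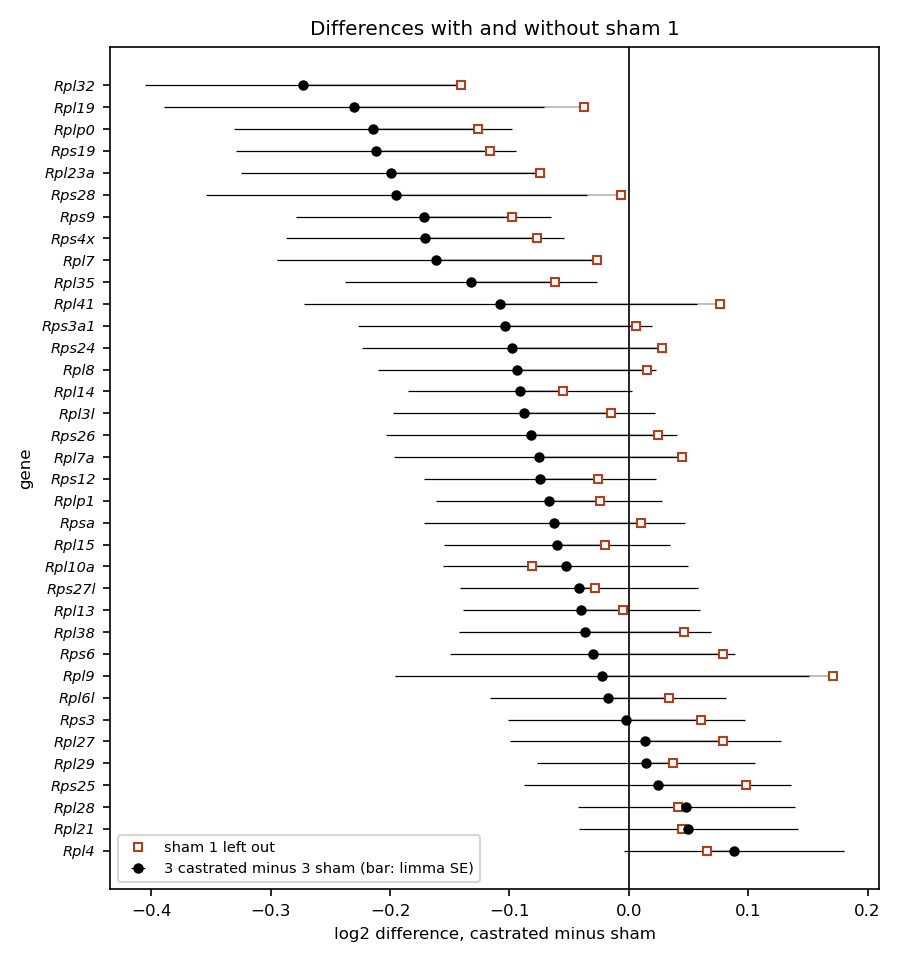
Log2 difference, castrated minus sham (horizontal axis), for the 36 ribosomal protein genes in the top quartile of value (vertical axis), from all 6 arrays (filled circles, bars are limma standard errors) and without sham 1 (open squares). With all arrays 30 of the circles are below 0, and 18 of the squares are.

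The spread was wider in the sham samples, of which sham 1 was the highest array for 31 of the 36 top-quartile genes. Sham spread without sham 1 was not calculated. Over the 36 genes the median standard deviation was 0.058 in castrated and 0.15 in sham samples, and 32 of the 36 (88.9%) had the larger one in sham, against 57.5% of all genes of the quartile. The differences themselves were close together, with a standard deviation of 0.087 among the 36 genes, against 0.16 among all genes of the quartile. The gap between sham 1 and the mean of the other 5 arrays was not equal over the genes. Chosen after their values were seen, the widest gaps above were 0.60 for Rpl19, 0.58 for Rps13, 0.58 for Rps27, 0.57 for Rps28 and 0.51 for Rpl41. The widest gaps below, chosen likewise, were -0.78 for Rps16, -0.61 for Rpl30 and -0.49 for Rpl17. Of the brightest probe sets, those of Rpl21, Rpl4 and Rpl28, the gaps were -0.043, -0.11 and -0.046.

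Sham 1 also had the highest sum for several lists of markers of other cells. The summed values, on the log2 scale, of 8 of 8 macrophage markers were 9.58 to 10.22 in castrated and 9.72 to 10.55 in sham samples, with sham 1 at 10.55 and highest for 7 of the 8. For 5 of 6 markers of fibro-adipogenic progenitors, the connective tissue cells of muscle, the sums were 11.98 to 12.22 in castrated and 11.97 to 12.36 in sham samples, with sham 1 at 12.36 and highest for 4 of the 5. For 5 of 5 satellite cell markers they were 8.80 to 8.95 in castrated and 8.90 to 9.16 in sham samples, with sham 1 at 9.16. Sham 1 was highest for 1 of these 5 and castrated 3 for the other 4. Sdc4, with a mean of 8.09, was far brighter than the others in this sum. Sdc4 differed by -0.33, castrated minus sham, whereas the other 4 were higher in castrated muscle. Sham 1 also had the highest sum of the fibre markers, at 16.74, and was highest for 6 of the 12. It had the lowest sum of the 6 endothelial markers, being lowest for 3 of them, and the sums were 11.64 to 11.71 in castrated and 11.53 to 11.77 in sham samples. Blood was read by 1 of 6 listed markers, at 4.84 to 5.58 in castrated and 5.16 to 5.54 in sham samples. Of 6 Schwann cell markers 4 were measured. Their sum was lowest in sham 1, which was lowest for 0 of the 4 and highest for 1, and the sums were 7.11 to 7.18 in castrated and 7.04 to 7.10 in sham samples. Between groups, the sums of 8 of 8 tendon markers were 11.39 to 11.69 in castrated and 10.70 to 11.60 in sham samples. Those of 6 of 7 adipocyte markers did not overlap, at 11.30 to 11.39 in castrated and 10.90 to 11.19 in sham samples. Fabp4, with a mean of 11.055, was far brighter than the others in this sum. Gene by gene, Fabp4 and Pparg had castrated above (2 of 6, against 5.73% of all genes). Adipoq, Plin1, Cidec and Lep overlapped. The sums of 5 of 6 lymphocyte markers overlapped, at 7.09 to 7.29 in castrated and 7.16 to 7.23 in sham samples. Array values have no true zero, so no marker was at 0, and the part of these cells in the result was not tested.

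**Figure D3:**
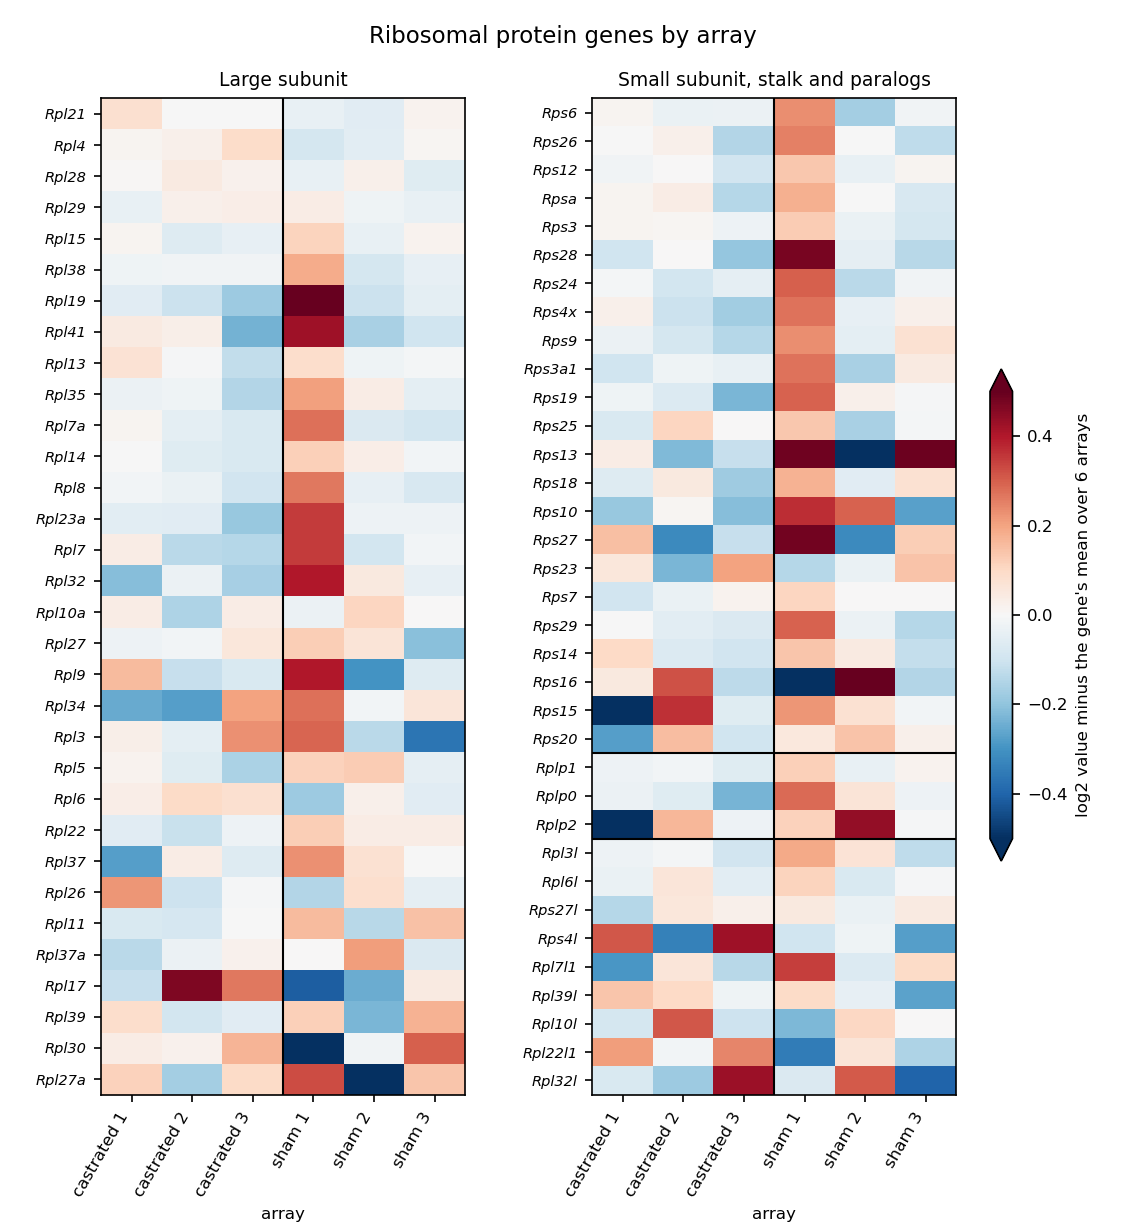
Log2 value minus the gene's mean over 6 arrays (colour, cut at 0.5 either way) for all 67 ribosomal protein genes (rows) in 3 castrated and 3 sham arrays (columns), with large-subunit core genes on the left and small-subunit, stalk and paralog genes on the right, each ordered by value. The sham 1 column is red for most rows, since it is the highest array for 44 of the 67 genes.

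In the large subunit, 21 of 32 core genes were lower in castrated muscle, with a median difference of -0.056, and 16 were lower without sham 1. Rpl32, a core protein often used as a reference gene, had the smallest p among those lower. Its log2 values were 8.78, 8.97 and 8.83 in castrated 1, 2 and 3, against 9.40, 9.04 and 8.96 in sham 1, 2 and 3. Sham 1 stood apart above, and castrated 2 overlapped sham 3. The difference was -0.27 (SE 0.13, limma adjusted p = 0.729), and -0.14 without sham 1. Rpl19, which takes part in a bridge between the subunits, had log2 values of 10.38, 10.32 and 10.25 in castrated samples, against 10.93, 10.32 and 10.38 in sham samples. Sham 1 stood apart above, and sham 2 lay within the castrated range. The difference of -0.23 (SE 0.16, limma adjusted p = 0.801) became -0.038 without sham 1. On the dimmer probe set of Rpl19 it was -0.014.

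Groups did not overlap for 4 of the 67 genes with castrated below, against 7.02% of all genes, and for 2 with castrated above, against 5.73% (12.8% either way). In the top quartile of value 3 of 36 had castrated below, against 12.5% of all genes there. Those below were Rpl22, Rpl23a, Rps19 and Rplp0, and those above were Rpl4 and Rpl6. Rpl23a sits at the exit of the peptide tunnel, where nascent chains meet their targeting factors. Its log2 values were 9.65, 9.65 and 9.51 in castrated samples, against 10.05, 9.68 and 9.68 in sham samples. The castrated values were just under sham 2 and sham 3 and well under sham 1. The difference was -0.20 (SE 0.13, limma adjusted p = 0.786), and -0.075 without sham 1. Rpl22, the protein that carries the tag in RiboTag mice, had log2 values of 5.94, 5.88 and 5.97 in castrated samples, against 6.12, 6.03 and 6.03 in sham samples. All castrated values were lower, by -0.13 on average (SE 0.092, limma adjusted p = 0.806), and by -0.10 without sham 1.

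Rpl4, whose product lines the peptide tunnel, went the other way, with log2 values of 12.06, 12.07 and 12.14 in castrated samples, against 11.96, 11.99 and 12.06 in sham samples. The highest sham value was just under the lowest castrated one, and sham 1 was the lowest array. The difference was 0.088 (SE 0.092, limma adjusted p = 0.874). Rpl6, another large-subunit core gene, had log2 values of 6.36, 6.42 and 6.41 in castrated samples, against 6.14, 6.35 and 6.27 in sham samples. It too had sham 1 as its lowest array, with a difference of 0.14 (SE 0.098, limma adjusted p = 0.803).

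Rpl17, also a tunnel protein, had the widest positive difference of the 67, with log2 values of 5.10, 5.69 and 5.48 in castrated samples, against 4.81, 4.97 and 5.27 in sham samples. Castrated 1 lay below sham 3, so the groups overlapped. The difference was 0.41 (SE 0.17, limma adjusted p = 0.691), and 0.31 without sham 1. Rpl3, which reaches towards the site of peptide bond formation, had 6.67, 6.59 and 6.87 in castrated samples, against 6.93, 6.51 and 6.28 in sham samples. The sham samples spanned a wider range than the castrated ones, and the difference was 0.14 (SE 0.17, limma adjusted p = 0.891), or -0.014 on its dimmest probe set.

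The other large-subunit core genes named did not pass and were close to the spread of their samples. Rpl37, a zinc-binding protein gene, differed by -0.20 (SE 0.12, limma adjusted p = 0.765). Rpl5 and Rpl11 encode the proteins that bind 5S ribosomal RNA and, when unassembled, the p53 ligase Mdm2. They differed by -0.13 and -0.11, with limma adjusted p = 0.823 and 0.868. Rpl7 differed by -0.16, and by -0.027 without sham 1. Rpl38, needed for translation of a subset of Hox messages in mouse embryos, differed by -0.037, by 0.046 without sham 1 and by 0.012 after quantile normalization. Its 3 castrated values rounded to 10.97 each, with sham values of 11.17, 10.90 and 10.95. Rpl39, a small protein of the tunnel wall, differed by -0.043.

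In the small subunit, 20 of 23 core genes were lower in castrated muscle, with a median difference of -0.098, and 13 were lower without sham 1, with a median of -0.0094. Rps19, the gene mutated most often in human Diamond-Blackfan anaemia, had log2 values of 7.81, 7.76 and 7.60 in castrated samples, against 8.13, 7.86 and 7.83 in sham samples. All castrated values were below all sham values. The difference was -0.21 (SE 0.12, limma adjusted p = 0.762), -0.12 without sham 1, and 0.063 on its dimmest probe set. Rps10, a protein marked with ubiquitin on stalled ribosomes, had 6.13, 6.33 and 6.11 in castrated samples, against 6.69, 6.62 and 6.05 in sham samples. Sham 3 was the lowest of the 6, and the difference was -0.26 (SE 0.17, limma adjusted p = 0.792).

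Rps9, a protein at the entry of the messenger RNA channel, had log2 values of 8.66, 8.61 and 8.55 in castrated samples, against 8.93, 8.64 and 8.77 in sham samples. Castrated 1 exceeded sham 2, and the difference was -0.17 (SE 0.11, limma adjusted p = 0.786). Rps4x, the X-linked form of S4, had 8.81, 8.68 and 8.62 in castrated samples, against 9.06, 8.75 and 8.81 in sham samples. The difference was -0.17 (SE 0.12, limma adjusted p = 0.798), and -0.077 without sham 1. Sham 1 was the highest array for both genes, one with a pyrimidine run in the line above and one without.

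Rps6, the small-subunit protein phosphorylated by S6 kinase downstream of mTORC1, was close to level. Its log2 values were 11.45, 11.40 and 11.41 in castrated samples, against 11.67, 11.26 and 11.42 in sham samples. The sham samples held both the highest and the lowest value, and the difference was -0.030 (SE 0.12, limma adjusted p = 0.972), and 0.079 without sham 1. In Rps28 only sham 1 lay outside the castrated range. This gene was named after its values were seen, which were 8.97, 9.07 and 8.88 in castrated samples, against 9.55, 9.03 and 8.93 in sham samples. Its difference of -0.19 became -0.0066 without sham 1. On the dimmer probe set of Rps28 sham 1 was instead the lowest array, at 4.26, and the difference was 0.020.

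Rps14, which lies on the platform of the small subunit, differed by -0.042 and Rpsa, first described as a laminin receptor, by -0.062. Rps27, a zinc-finger protein gene, differed by -0.19, and by 0.0032 without sham 1. The 3 small-subunit core genes with higher values were Rps16 (0.16), Rps23 (0.021) and Rps25 (0.024), of which Rps23 (-0.016) and Rps25 (-0.014) turned negative with arrays centred on their medians. Rps16 reaches the tRNA in the P site, and Rps23 lies at the decoding centre. Rps25 is used by several viral internal ribosome entry sites. None of the 6 passed, the smallest limma adjusted p among them being 0.876.

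The 3 stalk genes were all lower in castrated muscle, with a median of -0.21, and all 3 were also lower without sham 1, with a median of -0.13. Without castrated 1 the median was -0.11. Rplp0, the scaffold of the stalk and a common reference gene, had log2 values of 7.92, 7.89 and 7.72 in castrated samples, against 8.24, 8.02 and 7.93 in sham samples. The groups did not overlap, with castrated 1 just under sham 3. The difference was -0.21 (SE 0.12, limma adjusted p = 0.758). On the dimmer probe set of Rplp0 the groups overlapped, and the difference was -0.0095. Rplp1 and Rplp2 encode the acidic proteins that dimerise on that scaffold. Rplp1 had 11.34, 11.35 and 11.30 in castrated samples, against 11.48, 11.32 and 11.38 in sham samples, a difference of -0.067. On the dimmer probe set of Rplp1 it was -0.39. Rplp2 had 3.81, 4.66 and 4.47 in castrated samples, against 4.61, 4.94 and 4.49 in sham samples. Castrated 1 was far below the rest, the probe set was below the array median, and the difference was -0.37 (SE 0.21, limma adjusted p = 0.770).

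Of the 9 paralogs, 4 were lower and 5 higher in castrated muscle, with a median of 0.080, against -0.056 for the large-subunit core and -0.098 for the small-subunit core. The paralog median was -0.052 without castrated 2, -0.025 without sham 3 (5 lower in each case) and 0.0043 without castrated 3, so its sign rested on single samples. Sham 1 was the highest array for 3 of the 9. Rpl3l replaces Rpl3 in ribosomes of striated muscle, and its log2 values were 10.22, 10.23 and 10.15 in castrated samples, against 10.43, 10.31 and 10.11 in sham samples. The sham samples held both the highest and the lowest value, and the difference was -0.088 (SE 0.11, limma adjusted p = 0.899), and -0.015 without sham 1. Rpl3l and Rpl3 thus gave differences of opposite sign, neither larger than its standard error.

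Rpl22l1, the paralog that Rpl22 represses in mouse cells, had the smallest p among the paralogs. Its log2 values were 3.21, 2.99 and 3.25 in castrated samples, against 2.65, 3.07 and 2.85 in sham samples. Castrated 2 lay below sham 2, so the groups overlapped, and all 6 values were far below the array median. The difference was 0.29 (SE 0.13, limma adjusted p = 0.706), and 0.19 without sham 1, whereas Rpl22 itself differed by -0.13. The 2 genes thus ran in opposite directions, with neither past the threshold.

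Rpl7l1 had log2 values of 5.22, 5.57 and 5.37 in castrated samples, against 5.86, 5.44 and 5.61 in sham samples. Castrated 2 lay above sham 2, and the difference was -0.25 (SE 0.14, limma adjusted p = 0.762), of the same sign as that of Rpl7. Rps4l had 5.90, 5.26 and 6.02 in castrated samples, against 5.49, 5.57 and 5.32 in sham samples. Castrated 2 was the lowest of the 6, and the difference was 0.26 (SE 0.19, limma adjusted p = 0.807). Rps27l, a p53-inducible paralog, differed by -0.042, and Rpl6l by -0.017, or 0.017 after quantile normalization. Rpl10l and Rpl39l, known from male germ cells, differed by 0.080 and 0.14, and Rpl32l by 0.11, with values below the array median for all 3.

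**Figure D4:**
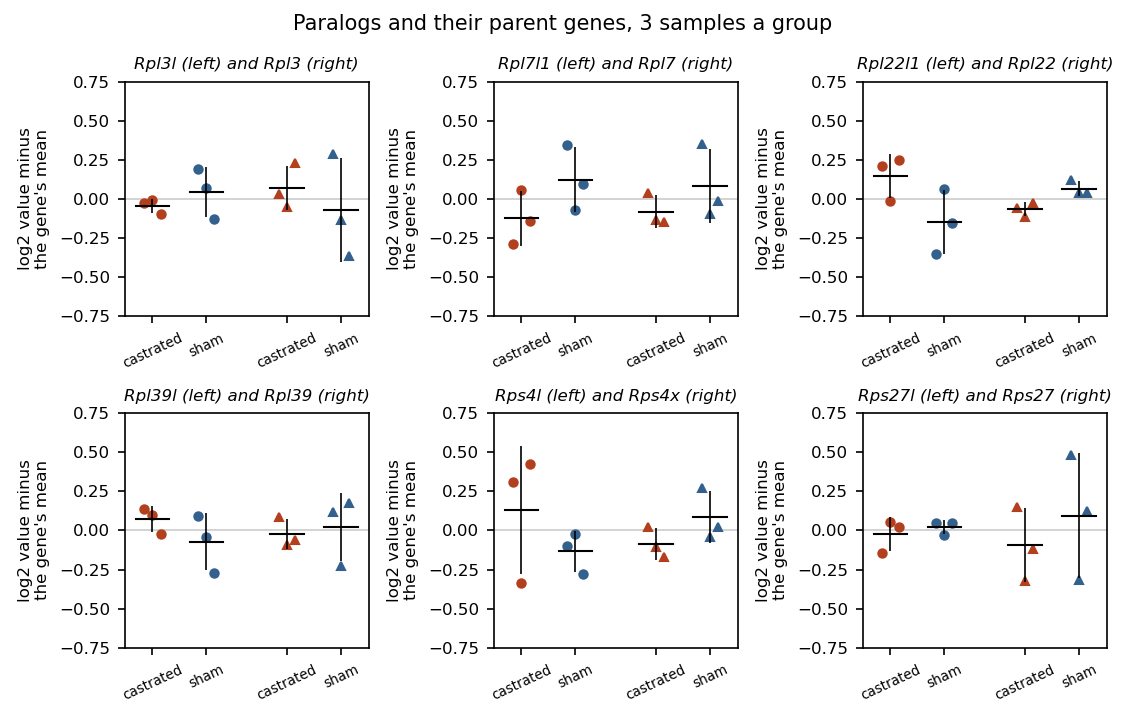
Log2 value minus the gene's mean over 6 arrays (vertical axis) for 6 paralogs (circles) beside the genes they resemble (triangles), castrated left of sham. Points are samples, horizontal lines group means and vertical lines SD (n = 3 each): Rpl22l1 and Rpl22 lie on opposite sides, by 0.29 and -0.13, and Rpl7l1 and Rpl7 on the same side, by -0.25 and -0.16.

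Lower values were found both with and without a pyrimidine run near an annotated start. Annotated starts can differ from those used in muscle, so this split does not divide genes with a 5′TOP message from genes without one. Of the 17 top-quartile genes with a run in an annotated window, 14 were lower in castrated muscle, with a median of -0.060, and 13 had sham 1 as the highest array. Of the 11 with windows but no run, 10 were lower, with a median of -0.10, and 11 had sham 1 highest. Of the 8 without a window, 6 were lower. The genes printed above were not picked by a stated rule and do not stand for these whole classes. Of those printed with a run, sham 1 was highest for Rps6, Rps9, Rpl15 and Rpl35 and not for Rpl28 and Rpl4. It was highest for all 4 printed without one, Rps28, Rps4x, Rplp0 and Rpl3l.

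Related genes were read from lists of other steps of ribosome production. For comparison, 51.5% of all genes were lower, with a median of -0.0056. In the top quartile of value, where the median value of each list lay, 64.2% were lower, with a median of -0.041. Fau, whose product is processed into the small-subunit protein S30, was the 1 gene of 4 measured that encode ribosomal proteins outside the symbol rule. Its log2 values were 8.74, 8.76 and 8.52 in castrated samples, against 9.04, 8.89 and 8.82 in sham samples. All castrated values were lower, by -0.24 (SE 0.11, limma adjusted p = 0.716), and sham 1 was again the highest array. Of 19 translation factor and related genes with 5′TOP messages, 16 were lower with a median of -0.060, 14 had sham 1 highest, and 0 passed. Without sham 1, 14 were lower with a median of -0.031. Eef1g and Eef1d, subunits of the elongation factor 1 exchange complex, had the smallest p, with differences of -0.14 and -0.11.

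Of 15 genes of mTORC1 and 5′TOP message control, 10 were lower with a median of -0.053, and 0 passed. Without castrated 1, 6 were lower with a median of 0.0067, and without sham 3, 8 were lower with a median of -0.017. Ddit4, an inhibitor of mTORC1 induced by stress and glucocorticoids, had log2 values of 7.22, 7.03 and 7.34 in castrated samples, against 6.57, 6.24 and 7.05 in sham samples. Castrated 2 lay just under sham 3, and the difference was 0.58 (SE 0.19, limma adjusted p = 0.668). Eif4ebp1, the translation repressor that mTORC1 inactivates, had 9.56, 9.23 and 9.85 in castrated samples, against 10.14, 9.72 and 10.13 in sham samples. The groups overlapped at castrated 3 and sham 2, and the difference was -0.45 (SE 0.18, limma adjusted p = 0.685).

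Of 16 genes of RNA polymerase I and ribosomal DNA transcription, 12 were lower with a median of -0.080, and 0 passed. Castrated 1 was the lowest array for 12 of the 16, and without it 10 were lower with a median of -0.017. Polr1d, a subunit shared with RNA polymerase III, had log2 values of 7.20, 7.34 and 7.20 in castrated samples, against 7.54, 7.48 and 7.52 in sham samples. All castrated values were below all sham values, with a difference of -0.27 (SE 0.095, limma adjusted p = 0.668). Twistnb, also known as Polr1f, differed by -0.22. Of 12 genes of ribosomal protein chaperones, import and the 5S particle, 11 were lower with a median of -0.098, or -0.063 without castrated 1. Ltv1, a small-subunit assembly factor, differed by -0.18, and Aamp by -0.20. Of 12 genes of ribosome dissociation, rescue and degradation, 8 were lower with a median of -0.069, or -0.038 without sham 2. Nufip1, described as a receptor for autophagy of ribosomes, had log2 values of 6.66, 6.73 and 6.92 in castrated samples, against 7.21, 7.02 and 7.32 in sham samples. The groups did not overlap, and the difference was -0.41 (SE 0.12, limma adjusted p = 0.596). Ascc3, a helicase that splits collided ribosomes, differed by -0.23, and none of the genes in these 3 lists passed.

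The mitochondrial ribosomal protein genes, which serve the separate ribosome inside mitochondria, had lower values with and without sham 1. Of 71 measured, 58 were lower in castrated muscle with a median of -0.11, and 59 were lower with a median of -0.093 without sham 1. Castrated 3 was the lowest array for 32 of the 71, and without it 54 were lower with a median of -0.072. Sham 1 was the highest array for 38.0% of them, against 65.7% of the cytosolic genes. None of the 71 passed (smallest limma adjusted p = 0.549), and the difference between the mitochondrial and the cytosolic genes was not tested.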

How the data were processed

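RNA of 3 castrated and 3 sham tibialis anterior muscles was hybridised to Affymetrix whole-transcript arrays. The authors deposited normalized expression on the log2 scale, 1 value a probe set. The submitters' processing notes list Partek. How background, summarization and normalization were handled is not given in the sources used here. Such steps make arrays alike and can compress shifts shared by many bright genes. Arrays have no read depth.

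Of 41345 probe sets, 23521 name 1 gene, 1814 several and 16010 none in the platform annotation. Symbols were updated through Entrez identifiers in a RefSeq table (GRCm38.p6), in which 23328 matched. Each of 22180 genes was read on its brightest probe set by mean value, with no filter. Castrated minus sham was fitted without covariates by lmFit and eBayes of limma 3.58.1 (R 4.3.3), and p-values were Benjamini-Hochberg adjusted over all genes, with a threshold of 0.05. The procedure was tested on simulated data, where it recovered 24% of log2 changes of 0.5 and 82% of changes of 1. The 67 ribosomal protein genes differed by -0.37 to 0.41, so changes of their size could mostly be missed. Members and lists of related genes are described by counts and medians beside those of all genes.

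The members and the lists were chosen with earlier results of these data known. Genes were named by a rule. It takes, in each role group, the 4 members with the smallest p in each direction, a set given whatever their values, and 2 genes of each list. Of that set, Rpl10 and Rps27a were not analysed here. Others are named as well, some with a statement that their values were seen first. Rpl15, Rpl28, Rpl32l and Rpl35 are among those outside the rule that carry no such statement. Promoter windows are RefSeq's, for 250 bases before and 50 after each start.

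Alternatives were other normalizations, filters, probe set choices, variance settings, thresholds, a replicate block and leaving out each sample. Same-numbered samples deviated together with correlations of 0.076, 0.033 and 0.047 over all genes, too low to take the numbers as pairs. Over the 67 ribosomal protein genes these correlations were 0.30, 0.22 and 0.058.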

Additional observations from a re-analysis of the deposited data

How the results depend on the processing

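No ribosomal protein gene had an adjusted p under 0.05 in any of the limma alternatives run, and 22 of the 36 genes named by the rule kept their sign in all of them. The median difference of the 67 genes was -0.047 with quantile normalization, -0.054 with cyclic loess and -0.11 with arrays centred on their medians, where the median of all genes was -0.043. Leaving out each sample gave medians between -0.10 and -0.0094, the last without sham 1, and 36 to 51 genes lower. In alternatives chosen after seeing the data, the median without sham 1 was 0.00056 in the top quartile, -0.038 below it (18 of 31 lower, as with all samples) and 0.0088 after quantile normalization. A filter at the 75th percentile kept 36 genes, of which 30 were lower. At an unadjusted p under 0.05 (limma), 1 ribosomal protein gene and 1581 of all genes passed, 802 higher and 779 lower.

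Calls over all genes numbered 9, 16 and 26 with filters at the 25th, 50th and 75th percentile, which test fewer genes, and 10 with a trended robust prior. Without variance moderation limma's fit gave 0, with 1412 genes at an unadjusted p under 0.05. The replicate number as a block left 0 ribosomal protein genes called (smallest limma adjusted p = 0.639) and 2 of all genes. Over all genes each castrated sample correlated best with the sham sample of its own number, a hint from the data and not from the design. Over the 67 genes this held for castrated 1 (0.30 with sham 1) and castrated 2 (0.22 with sham 2). Castrated 3 correlated better with sham 2 (0.13) than with sham 3 (0.058).

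Signs changed for Rpl3 (-0.014) and Rps19 (0.063) on the dimmest probe set, for Rpl38 (0.012) and Rpl6l (0.017) with quantile normalization, and for Rpl6l (0.022) with cyclic loess. They also changed for Rps23 (-0.016) and Rps25 (-0.014) with centred arrays. Over the fits that leave out 1 sample, 13 genes changed sign. Their differences ranged from -0.055 to 0.15 for Rpl10l, -0.0090 to 0.32 for Rpl3, -0.089 to 0.046 for Rpl38, -0.17 to 0.033 for Rpl39 and -0.060 to 0.033 for Rpl6l. They ranged from -0.11 to 0.016 for Rps14, -0.13 to 0.48 for Rps16, -0.075 to 0.14 for Rps23, -0.050 to 0.098 for Rps25 and -0.40 to 0.0032 for Rps27. For Rps27l, Rps6 and Rpsa they were -0.081 to 0.019, -0.12 to 0.079 and -0.12 to 0.010. The causes were not tested.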

Other observations

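A further 57 probe sets name a ribosomal protein gene together with other genes and were not read as genes. Of these, 45 were lower in castrated muscle, with a median difference of -0.084 and a range of -0.34 to 0.40. Sham 1 was the highest array for 40 of them. Without sham 1, 31 were lower and the median was -0.0057. In the top quartile of value, 24 of 29 were lower with a median of -0.084, and 0.00092 without sham 1.

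Several genes had more than 1 probe set of their own (25 of the 67), and for 5 of them another probe set differed in sign from the one used. These were Rpl3, Rpl13, Rpl41, Rps19 and Rps28. For Rps12, Rpl23a and Rps19, 10 probe sets held the same 6 values as another one.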
